A study of Mus musculus with 20 samples.

Results

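Sebaceous gland lipid genes were followed in keratinocytes sorted from mouse skin. The genes were chosen by name as Pparg, Scd1, Scd3, Elovl3, Far2, Soat1 and Cidea, and each matched 1 row of the count table, so that 7 of 25719 genes are described. All 7 passed the filter on low counts, which kept 12424 genes. The cells came from ear and back skin of 20 mice in 4 groups of 5, and RNA was sequenced in bulk from SmartSeq II libraries. Conditional knockout mice (cKO; K14-CreERTam x Cyp11b1 L2/L2) carried floxed alleles of Cyp11b1, the gene of the enzyme that completes corticosterone synthesis, and a tamoxifen-inducible Cre recombinase under the keratin 14 promoter, which is active in basal keratinocytes and in the appendages that arise from them. Controls were littermates with the same floxed alleles and no Cre. All mice of all groups received tamoxifen on 5 days, and cells were taken on day 6. In the topical groups tamoxifen was put on the skin, with 20 µl on the ear and 100 µl on the dry-shaved back. In the systemic groups 100 µl of a 10 mg/ml solution was injected into the peritoneum. Route therefore differs together with vehicle and shaving, and no group went without tamoxifen.

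Sebaceous glands are lobes of epithelial cells attached to hair follicles. Their cells, sebocytes, descend from keratin 14-positive progenitors, fill with lipid droplets and burst to release sebum, which in mice is rich in wax esters, sterol esters and triglycerides. The nuclear receptor PPARγ, the product of Pparg, drives sebocyte differentiation. Scd1 and Scd3 encode stearoyl-CoA desaturases, which put a double bond into fatty acyl chains, and Scd1 is the principal desaturase of skin, whose loss in mice leaves the sebaceous glands atrophied. Elovl3 lengthens saturated and monounsaturated acyl chains. Far2 reduces acyl-CoA to the fatty alcohols of wax esters, Soat1 joins cholesterol to a fatty acid, and Cidea sits on lipid droplets and promotes their fusion.

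In GRCm38, Soat1 (ENSMUSG00000026600) lies on chromosome 1 from 156424525 to 156474331 on the minus strand. Pparg (ENSMUSG00000000440) lies on chromosome 6 from 115360951 to 115490399 and Far2 (ENSMUSG00000030303) from 148047259 to 148182758, both on the plus strand. On chromosome 19 are Scd3 (ENSMUSG00000025202; 44203269 to 44244016, plus strand), Scd1 (ENSMUSG00000037071; 44394455 to 44407879, minus strand) and Elovl3 (ENSMUSG00000038754; 46131897 to 46135694, plus strand). Each is annotated as protein coding, and a gene's count covers its exons together. Scd1 and Scd3 lie 150.4 kb apart, with the desaturase genes Scd2 and Scd4 between them, and are near-identical in places. Of the 3440 windows of 50 bases in the Scd3 transcript used, 167 (4.85%) also occur in Scd1. In Scd2 136 of the same 3440 windows occur, and in Scd4 68. How the counting treated reads that fit more than 1 of these genes is not given in the sources used here. Scd3 values are uncertain to that extent.

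Promoter sequences are shown because the members varied together across mice, as described further on. They are the 250 bases before the start site in RefSeq (GRCm38.p6), 5′ to 3′ on the strand of the gene, with capitals marking a match to a searched motif on either strand. RefSeq gave 3 start sites for Pparg, of which the window with the most matches is shown, and 1 each for Scd3, Far2 and Soat1. Scd1 and Elovl3 are named only, and no window was taken for Cidea.
Pparg, chr6:115362099-115362348: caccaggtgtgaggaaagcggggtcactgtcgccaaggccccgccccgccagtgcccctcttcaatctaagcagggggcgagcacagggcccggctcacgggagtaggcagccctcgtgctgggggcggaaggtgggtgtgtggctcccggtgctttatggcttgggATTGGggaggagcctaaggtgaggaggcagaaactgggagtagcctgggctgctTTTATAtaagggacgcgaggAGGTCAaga
Soat1, chr1:156474329-156474578: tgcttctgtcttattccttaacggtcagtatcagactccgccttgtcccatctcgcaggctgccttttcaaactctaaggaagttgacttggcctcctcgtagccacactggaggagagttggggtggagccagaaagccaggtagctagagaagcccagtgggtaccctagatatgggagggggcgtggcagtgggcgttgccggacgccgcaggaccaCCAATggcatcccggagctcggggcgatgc
Far2, chr6:148047166-148047415: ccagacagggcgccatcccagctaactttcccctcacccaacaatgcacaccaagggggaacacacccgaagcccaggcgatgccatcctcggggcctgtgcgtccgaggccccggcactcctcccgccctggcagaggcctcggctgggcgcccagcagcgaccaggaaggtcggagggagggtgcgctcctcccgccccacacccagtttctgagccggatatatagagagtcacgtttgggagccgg
Scd3, chr19:44203038-44203287: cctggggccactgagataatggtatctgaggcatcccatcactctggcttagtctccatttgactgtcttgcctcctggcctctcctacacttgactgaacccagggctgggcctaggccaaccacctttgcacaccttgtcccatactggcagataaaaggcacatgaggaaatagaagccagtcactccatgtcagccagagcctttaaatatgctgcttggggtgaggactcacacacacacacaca
The motifs were searched in windows of 300 bases, 250 before and 50 after the start. AGGTCA, the core bound by nuclear receptors such as PPARγ, occurred in 2 of the 6 member windows, both of Pparg, and in 16.26% of 32851 RefSeq promoter windows. A direct repeat of this core spaced by 1 base occurred in none of the 6 and in 0.04% of all. CCAAT was found in Soat1 and in 2 Pparg windows against 37.41% of all windows, and TATAAA in the Pparg window shown against 13.62%. The sterol regulatory element TCACNCCAC was in none of the 6 and in 1.24% of all. A match is a description of the letters, not of binding.

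Libraries held 11588851 to 50082771 counts, and 14536 to 18750 genes had a count in a library. The keratinocyte gene Krt14 ranged from 24487 to 76082 CPM (counts per 1000000, scaled with TMM factors), and the leukocyte gene Ptprc reached no more than 0.108 CPM. Other immune markers listed were higher, with Cd74 at 4.16 to 27.5 CPM and Cd52 at 0.447 to 2.53 CPM, both counted in 20 libraries. A set of 12 predicted genes whose sequence resembles satellite repeats exceeded a summed 50 CPM (of the library total, as for the Y-linked sum) in 6 libraries, which were all 5 systemic controls (79.4 to 11674 CPM) and systemic cKO 2 (37287 CPM). Their sum stayed between 0.839 and 42.5 CPM in the other 14. Y-linked transcripts summed to over 5 CPM in 10 libraries: 3 topical controls, 2 topical cKO, 3 systemic controls and 2 systemic cKO.

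Sebocyte transcripts were present next to the keratins. Mgst1, a glutathione transferase abundant in sebocytes, ranged from 7.66 to 215 CPM, and Fa2h, a fatty acid hydroxylase, from 1.59 to 113 CPM. Mc5r, a melanocortin receptor of sebocytes, was counted in 20 of 20 libraries at 0.329 to 8.05 CPM. Awat1 and Awat2, wax synthases of the gland, were counted in 18 and 20 libraries and reached 3.91 and 2.18 CPM. Dgat2l6, another gland enzyme, had counts in 7 libraries and at most 0.162 CPM. Summed over the 14 sebocyte markers listed, the level was 1930 to 2684 CPM in topical controls, 1509 to 4016 in topical cKO, 1073 to 5172 in systemic controls and 1250.0 to 4049 in systemic cKO. This sum is carried by Krt79, a keratin of the gland duct, which made up 41.1% to 83.1% of it per library. Without Krt79 it was 610.1 to 784 CPM in topical controls, 439 to 1025 in topical cKO, 408 to 1038 in systemic controls and 379 to 1280 in systemic cKO. Krt79 did not vary with the members (r = -0.058 with their mean standardised level, n = 20, group means removed). Of the 11 adipocyte markers listed, 5 were at or near 0. Adipoq had a count in 1 library, Lep and Cfd in 2 each, Retn in 8 and Plin1 in 7, and none of these 5 genes exceeded 0.255 CPM. Others were counted more widely: Fabp4 in 19 libraries (at most 1.48 CPM), Plin4 in 18 (0.519) and Cidec in 16 (0.664). Lipe and Adrb3 were counted in 20 libraries, at most at 4.24 and 2.64 CPM. Fabp4 and Cidec were highest in topical cKO 5. The sum of all 11 adipocyte markers, carried by genes that sebocytes and keratinocytes also use such as Lpl, was 9.89 to 20.7 CPM in topical controls, 11.3 to 28.0 in topical cKO, 4.41 to 18.5 in systemic controls and 6.69 to 16.1 in systemic cKO.

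Values per mouse are TMM-scaled CPM, given in the order of the mouse numbers: 1, 3, 5, 6 and 7 for topical controls, 2, 3, 4, 5 and 7 for topical cKO, 1, 3, 4, 5 and 6 for systemic controls and 2, 4, 5, 6 and 7 for systemic cKO. In bulk RNA a lower value can mean fewer sebocytes among the sorted cells or less transcript per cell, and these cannot be told apart.

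Pparg, the regulator, had the fewest reads of the 7 genes, 1092 in all 20 libraries. It stood at 3.28, 1.68, 5.94, 3.43 and 2.11 CPM in topical controls and at 4.39, 2.42, 1.77, 5.97 and 4.18 CPM in topical cKO. In systemic controls it was 1.53, 0.700, 0.198, 1.64 and 2.79 CPM, and in systemic cKO 0.264, 2.42, 0.773, 2.21 and 0.438 CPM. Genotypes overlapped within each route, whereas 4 of 5 systemic controls lay below the lowest topical control and 3 of 5 systemic cKO below the lowest topical cKO. The values of systemic control 4 and systemic cKO 2 rest on 3 reads each, which is the detection floor used here.

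Scd1 was by far the most abundant member. Its level was 1771, 859, 1948, 1405 and 1119 CPM in topical controls and 1581, 648, 2307, 2332 and 1989 CPM in topical cKO. Systemic controls had 897, 406, 221, 1496 and 956 CPM, and systemic cKO 167, 3172, 1154, 1050.1 and 1019 CPM. Systemic cKO held both the lowest and the highest of the 20 values, in mice 2 and 4, a ratio of 19.0.

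Scd3, the other desaturase gene among the members, stood at 5.85, 4.42, 5.67, 10.1 and 4.77 CPM in topical controls and 2.98, 1.33, 5.92, 3.14 and 13.4 CPM in topical cKO. It stood at 4.34, 3.82, 0.461, 4.79 and 8.14 CPM in systemic controls and 0.352, 41.7, 3.41, 5.25 and 2.38 CPM in systemic cKO. The range was the widest of the members, 118-fold, and the mean of systemic cKO, 10.6 ± 17.5 CPM (SD, n = 5), is set by mouse 4, whose library held 1705 of the 3481 Scd3 reads. Per 1000 Scd1 reads, Scd3 had a median of 4.26 reads in topical controls, 2.05 in topical cKO, 4.84 in systemic controls and 2.95 in systemic cKO, with ranges that overlapped. The highest ratio, 13.1, was also that of systemic cKO 4.

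Elovl3, the elongase, stood at 40.9, 16.3, 48.0, 57.7 and 29.9 CPM in topical controls and 38.7, 21.3, 51.0, 88.6 and 68.0 CPM in topical cKO. Systemic controls had 15.96, 7.70, 2.57, 35.4 and 37.0 CPM, and systemic cKO 1.59, 54.2, 20.2, 25.5 and 25.1 CPM. The lowest and highest libraries, systemic cKO 2 and topical cKO 5, were 55.9-fold apart, and 3 of 5 systemic controls lay below every topical control.

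Far2, the reductase for wax alcohols, stood at 56.7, 30.6, 72.5, 70.1 and 44.1 CPM in topical controls and 61.1, 32.3, 73.8, 106 and 94.9 CPM in topical cKO. It had 26.9, 16.6, 8.82, 44.9 and 52.1 CPM in systemic controls and 11.2, 83.1, 27.1, 31.7 and 29.0 CPM in systemic cKO. Its range of 12.0-fold was the narrowest of the 7, and 4 of 5 systemic cKO lay below the lowest topical cKO.

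Soat1, which makes cholesteryl esters, was at 50.4, 25.9, 62.2, 56.1 and 29.7 CPM in topical controls and 45.5, 32.98, 56.8, 86.9 and 83.5 CPM in topical cKO. Systemic controls had 21.5, 12.3, 3.95, 35.2 and 41.9 CPM, and systemic cKO 2.82, 47.3, 18.2, 29.7 and 24.8 CPM. Again 4 of 5 systemic cKO lay below the topical cKO range, and mouse 4 lay inside it.

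Cidea (ENSMUSG00000024526), the droplet protein gene, lies on chromosome 18 from 67343604 to 67367785 (GRCm38, plus strand, protein coding). It was at 23.1, 8.78, 18.4, 28.9 and 13.1 CPM in topical controls and 22.8, 14.8, 25.5, 36.4 and 27.4 CPM in topical cKO. Systemic controls had 13.2, 4.42, 2.50, 18.8 and 21.5 CPM, and systemic cKO 1.06, 21.2, 8.22, 14.5 and 11.2 CPM. The order of mice was close to that of Soat1, with systemic cKO 2 lowest and topical cKO 5 highest.

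**Figure D1:**
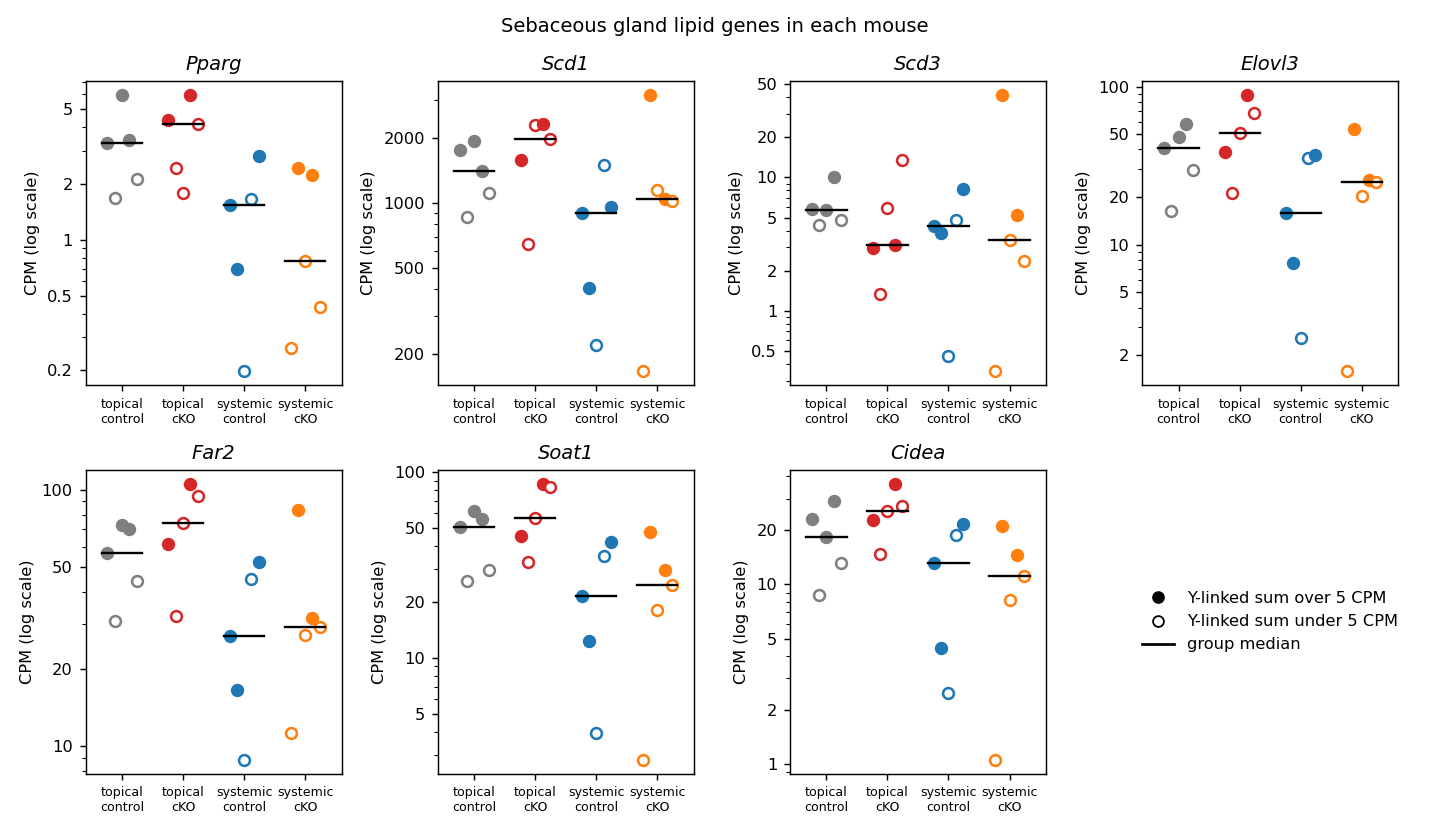
Level of each gene in each mouse (TMM-scaled CPM, log scale, 1 point per mouse, 5 mice per group), with a bar at the group median. Filled points are libraries with a Y-linked sum over 5 CPM and open points those under it; the 2 lowest points of each panel are systemic control 4 and systemic cKO 2.

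Per kilobase of exon, the order of the genes was stable at its top. Scd1 was highest in 20 of 20 libraries, with a mean of 271 CPM per kb. Elovl3 (17.4 CPM per kb) and Cidea (15.1) followed, with Elovl3 the higher in 12 of 20 libraries, so that these neighbours did not differ beyond their spread. Far2 (6.65) lay below Cidea in 19 of 20 libraries and above Soat1 (3.92) in 20 of 20, and Soat1 lay above Scd3 (1.86) in 19. Scd3 and Pparg (0.815) came last, Pparg in 16 libraries and Scd3 in 4.

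The topical groups show whether these genes differ between cKO and control skin under local tamoxifen. Mean levels of 6 of the 7 genes were higher in cKO and that of Scd3 lower, but no difference exceeded the spread between mice. Soat1 averaged 61.1 ± 23.6 CPM in cKO and 44.8 ± 16.2 in controls (SD, n = 5 each), and Elovl3 53.5 ± 26.0 against 38.6 ± 16.1 CPM. Log2 fold changes ran from -0.24 for Scd3 (SE 0.87) to 0.48 for Elovl3 (SE 0.67), and the median was 0.43 beside 0.020 over all genes. By edgeR's quasi-likelihood test adjusted over 12424 genes, 0 of 7 members were called at an adjusted p under 0.05 (adjusted p 0.997 for each), against 0.129% of all genes. Before adjustment 0 members and 5.66% of genes fell under 0.05. With DESeq2 0 members were called as well. The 95% intervals show what this size of experiment leaves possible: the fold change of Scd1 lay between 0.575 and 2.71, that of Far2 between 0.685 and 2.64 and that of Scd3 between 0.237 and 3.02. No member's groups were free of overlap, against 1.4% of all genes.

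Systemic cKO was compared with systemic control for the same question under injection. Again no member was called, and the estimates were mixed in sign. Scd1 averaged 1312 ± 1112 CPM in cKO and 795 ± 502 CPM in controls, which is 0.72 on the log2 scale (SE 0.54, adjusted p 0.578 by edgeR's quasi-likelihood test), with 1 of 5 cKO mice above the control range and 1 below it. Scd3 had the largest estimate, 1.31 (SE 0.86, adjusted p 0.509), and this turned to -0.59 without systemic cKO 4. Without the same library Elovl3 moved from 0.37 to -0.12 and Far2 from 0.29 to -0.27. Leaving out any other single library did not turn the sign of Scd3, Elovl3 or Far2. Soat1 moved from 0.10 to -0.28, and also turned without systemic control 3 (-0.056) or systemic control 4 (-0.17). Pparg (-0.16) and Cidea (-0.092) were below 0. Of all genes 1.89% were called (1.36% higher, 0.531% lower). Before adjustment 15.3% of genes and 0 of 7 members fell under 0.05, and DESeq2 called 0 members. All 7 genes overlapped between genotypes, against 1.94% of genes without overlap. Satellite-like transcripts moved with this comparison, being over 50 CPM in 5 of 5 controls and 1 of 5 cKO. With their log2 sum as a covariate the Scd1 estimate became -0.94, Scd3 -0.80, Elovl3 -1.39, Far2 -0.54 and Soat1 -1.33, with no member called. The part of those transcripts in the result was not tested further, since 5 of the 6 libraries high in them are the controls.

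The genotype difference was then compared between routes. The interaction, systemic minus topical, was called for 0 of 7 members, with log2 values from -0.56 for Cidea (SE 0.79) to 1.56 for Scd3 (SE 1.22) and a smallest adjusted p of 0.595 by edgeR's quasi-likelihood test. Of all genes 0.25% were called (0.185% higher, 0.0644% lower). Before adjustment 14% of genes and 0 of 7 members fell under 0.05, and DESeq2 called 0 members. The interval for Scd1 ran from -1.18 to 1.98 and that for Far2 from -1.51 to 1.24 on the log2 scale, so that a difference between routes of more than 2-fold in either direction lay inside both.

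**Figure D2:**
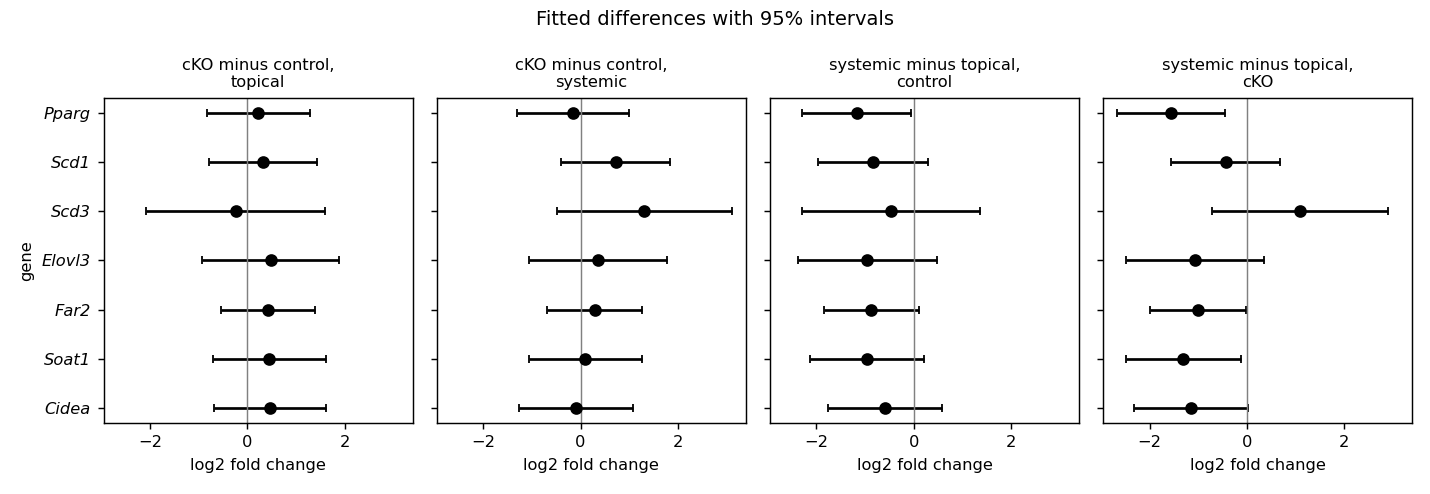
Fitted log2 differences of the 7 genes with 95% intervals for the 4 comparisons of pairs of groups, in 1 panel each (horizontal axis, log2 fold change; line at 0; 5 mice per group). Intervals of both genotype comparisons include 0 for all 7 genes. Below 0 lie the intervals of Pparg for route in controls (-2.29 to -0.066) and of Pparg (-2.67 to -0.45), Soat1 (-2.48 to -0.13) and Far2 (-1.99 to -0.027) for route in cKO, none of them called after adjustment over all genes.

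Systemic controls were compared with topical controls, which differ in route and not in genotype. The estimates of all 7 genes were below 0, with a median of -0.87 beside 0.00081 over all genes, yet no member was called. Pparg averaged 1.37 ± 0.99 CPM in systemic and 3.29 ± 1.66 CPM in topical controls, a log2 difference of -1.18 (SE 0.54; unadjusted p 0.0389, adjusted p 0.130 by edgeR's quasi-likelihood test). Soat1 averaged 23.0 ± 15.7 against 44.8 ± 16.2 CPM (-0.96, adjusted p 0.245), and Far2 29.9 ± 18.4 against 54.8 ± 17.7 CPM (-0.87, adjusted p 0.205). Of all genes 18.3% were called (10.2% higher, 8.16% lower). Before adjustment 32.9% of genes and 1 of 7 members fell under 0.05, and DESeq2 called 0 members. No member was free of overlap, against 13.8% of genes. With sex read from Y-linked genes as a covariate, Pparg was called (-1.21, SE 0.41, adjusted p 0.0399). All 5 systemic and no topical controls were over 50 CPM of satellite-like transcripts, so route and that split cannot be told apart here. A fit with the split as a covariate takes its coefficient from systemic cKO 2 against the other 4 systemic cKO alone, so it does not separate route from the split. In that fit all 7 estimates were above 0, from 1.07 for Far2 to 4.76 for Scd3, and none was called.

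Systemic cKO were likewise compared with topical cKO. Pparg averaged 1.22 ± 1.02 CPM in systemic and 3.75 ± 1.68 CPM in topical cKO, a log2 difference of -1.56 (SE 0.53, unadjusted p 0.00814, adjusted p 0.0716 by edgeR's quasi-likelihood test). Soat1 averaged 24.6 ± 16.3 against 61.1 ± 23.6 CPM (-1.30, adjusted p 0.166), and Far2 36.4 ± 27.3 against 73.6 ± 28.9 CPM (-1.01, adjusted p 0.204). Cidea (-1.15), Elovl3 (-1.07) and Scd1 (-0.43) were below 0 as well, and Scd3 was above it (1.09, SE 0.86). No member was called, beside 9.22% of all genes (5.19% higher, 4.02% lower). Before adjustment 3 of 7 members and 23.1% of genes fell under 0.05. The groups overlapped for each of the 7 genes, against 7.39% of genes without overlap. Mouse 4 of the systemic cKO decided several of these values. Without it Pparg (-2.02, adjusted p 0.0321) and Far2 (-1.57, adjusted p 0.0336) were called, and Scd3 became -0.82. Pparg was also called by the DESeq2 Wald test (-1.59, adjusted p 0.0361) and with sex as a covariate (-1.72, adjusted p 0.00923). Without the 6 libraries over 50 CPM of satellite-like transcripts it was -1.35 (adjusted p 0.0916) and no member was called. The route comparisons share their groups with the genotype comparisons, so the agreement in sign among them is not independent.

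All 7 genes varied widely between mice of a group. The biological coefficient of variation, edgeR's estimate of the relative spread left after counting error, was 0.506 for Far2, 0.572 for Scd1, 0.576 for Pparg, 0.601 for Soat1, 0.614 for Cidea, 0.725 for Elovl3 and 0.916 for Scd3. The median over 12424 genes was 0.230, and the members lay between percentiles 94.96 and 99.7 of all genes. Within groups the SD of log2 CPM was 0.85 to 1.57, against a median of 0.35. The fewest reads in a library were 1896 for Scd1, 127 for Far2, 32 for Soat1, 18 for Elovl3, 12 for Cidea, 4 for Scd3 and 3 for Pparg, so that counting error adds to the lowest values of the last genes.

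The members moved together from mouse to mouse. With the group mean removed, log2 CPM of the 21 gene pairs correlated over 20 libraries at Pearson r from 0.748 (Pparg with Scd3; Spearman 0.632) to 0.988 (Elovl3 with Soat1; Spearman 0.967). Without the 2 libraries farthest from the median of the first gene, r ran from 0.562 to 0.971. The 6 pairs with Scd3 had r of 0.748 to 0.874. These values describe libraries that share their depth and scaling, and no p is given. Within the 14 libraries at or under 50 CPM of satellite-like transcripts r ran from 0.501 to 0.967. Without systemic cKO 2 and systemic control 4, the lowest libraries, it ran from 0.517 to 0.970. Within the 10 systemic libraries it ran from 0.829 to 0.994, and within the 10 topical ones from 0.173 (Pparg with Scd3) to 0.983. Leaving Scd3 aside, the lowest value among topical libraries was 0.533.

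**Figure D3:**
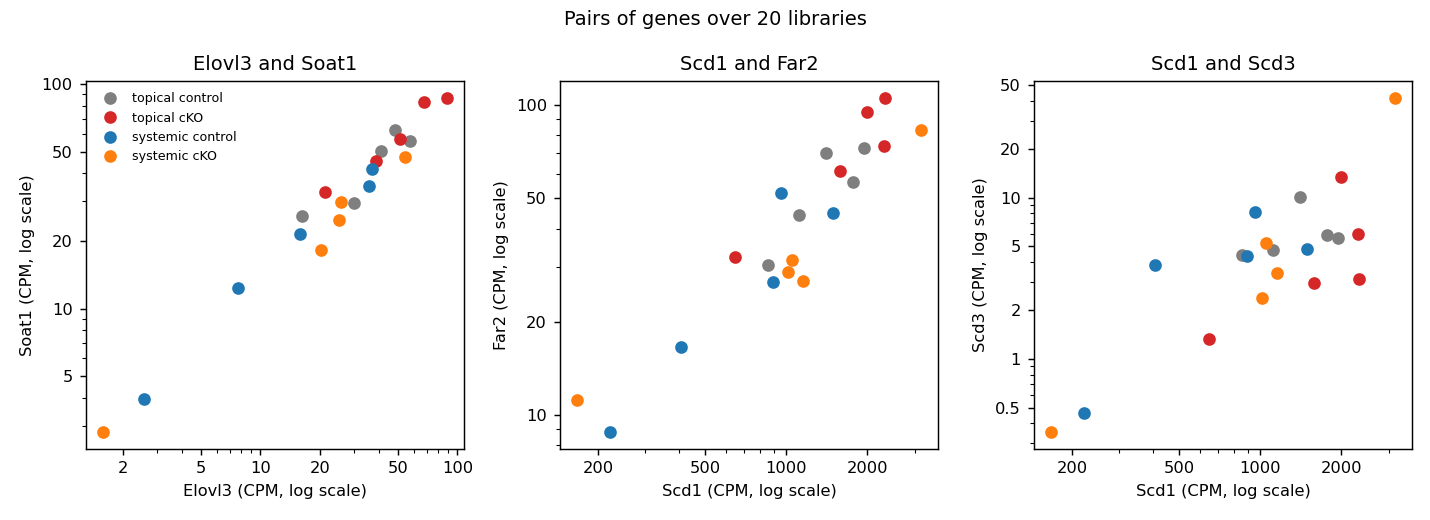
CPM of pairs of genes in the same 20 libraries (both axes log scale, 1 point per library, colour by group). Elovl3 and Soat1 lie close to a line over their whole range, whereas Scd3 spreads from 1.33 to 13.4 CPM among topical cKO libraries and reaches 41.7 CPM in systemic cKO 4.

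Each gene also followed the mean of the other 6. The correlation was 0.980 for Soat1, 0.976 for Elovl3, 0.959 for Far2, 0.956 for Cidea, 0.944 for Scd1, 0.871 for Scd3 and 0.842 for Pparg. Of 12417 genes outside the set, 2 correlated more highly with that mean than Soat1 and 55 more highly than Pparg. Systemic cKO 2 was lowest for 5 of the 7 genes and systemic control 4 for the other 2, and topical cKO 5 was highest for 5. The mean standardised level of the members correlated at -0.56 with the log2 satellite-like sum (-0.20 without the 2 farthest libraries), at 0.72 with the log2 adipocyte marker sum (of the library total), at 0.48 with Y-linked CPM and at -0.036 with the mitochondrial share (n = 20, group means removed, described without a test). The adipocyte sum includes Lpl, which is taken up next.

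**Figure D4:**
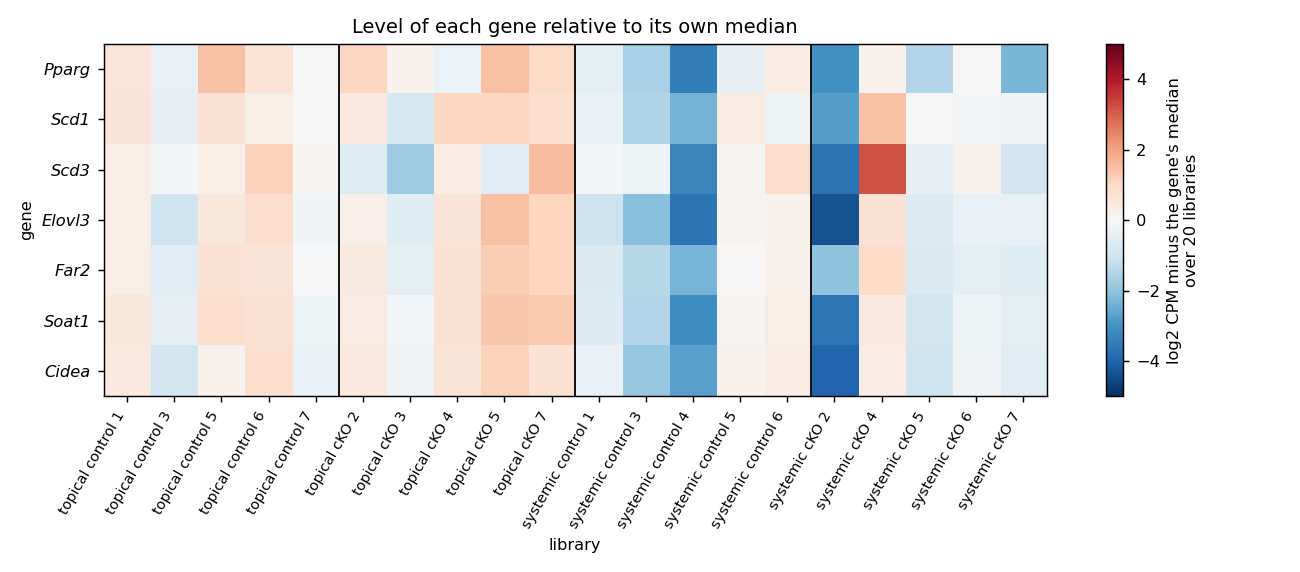
Log2 CPM of each gene in each library minus that gene's median over the 20 libraries (colour; genes in rows, libraries in columns by group). The columns of systemic control 4 and systemic cKO 2 are low for every gene, and those of topical cKO 5 and 7 are high except for Scd3 in topical cKO 5.

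The genes whose pattern was most like that of the members were ranked by Pearson correlation with their mean standardised level, among genes averaging 1 CPM or more (20 libraries, group means removed). Cers4, a ceramide synthase, came first with r = 0.992 and ranged from 8.72 to 209 CPM. Mgst1 followed (0.980), then Lpl (0.975), lipoprotein lipase, which frees fatty acids for uptake. Slc27a4 (0.968) encodes a fatty acid transporter, Acoxl (0.967) an acyl-CoA oxidase-like protein, Fa2h (0.960) the fatty acid hydroxylase and Cd36 (0.959) a fatty acid receptor. Tmem45b, a membrane protein gene, was eighth (0.957, 0.176 to 9.67 CPM). Over 12417 genes outside the set, 85 (0.685%) had r of at least 0.8. Among listed genes past the filter the share was 6 of 12 sebocyte markers, 6 of 23 genes of fatty acid synthesis, 3 of 13 lipid droplet genes, 2 of 9 genes of wax and sterol ester synthesis and 1 of 21 PPARγ partners and sebocyte regulators. It was 1 of 3 adipocyte markers, and 0 of 7 keratinocyte, 9 hair follicle, 4 fibroblast, 3 immune and 3 melanocyte markers. Without the 2 farthest libraries, r fell under 0.8 for Mc5r (0.792), Awat1 (0.714), Acacb (0.765), Me1 (0.659) and Scd4 (0.613), so these shares depend in part on those libraries.

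Other genes of the same pathways were read from lists. Of 9 genes of wax and sterol ester synthesis past the filter, 0 were called in the topical comparison. In the systemic genotype comparison 1 was called lower: Dgat1, which completes triglycerides, fell from 16.1 ± 3.44 to 10.4 ± 1.17 CPM (log2 fold change -0.63, edgeR adjusted p 0.0444). Of 23 genes of fatty acid synthesis 1 was called higher there, Me1, which supplies NADPH to lipogenesis (57.5 ± 11.7 to 111 ± 38.7 CPM; 0.95, adjusted p 0.0218). Dgat1 lost its call in 7 and Me1 in 5 of 10 fits that left out a library, and both with either satellite-like covariate. The lipid droplet list (13 genes), the partner and regulator list (21) and the sebocyte list (12) had 0 calls in both genotype comparisons. Of all genes 0.129% were called in the topical comparison, and 1.36% higher and 0.531% lower in the systemic one. Median log2 fold changes of these 5 lists lay between -0.10 and 0.15 in the topical and between -0.15 and 0.29 in the systemic comparison. Over all genes the medians were 0.020 and -0.0045.

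Between routes, genes of these lists were called in both directions. In controls, where 18.3% of genes were called, 3 of 23 genes of fatty acid synthesis fell from topical to systemic and 0 rose, and the median of the list was -0.20. Scd4, a further desaturase, fell by 2.33 on the log2 scale (adjusted p 0.00683), Scd2 by 1.57 (adjusted p 0.0146) and Elovl6, the elongase of palmitate, by 1.48 (adjusted p 0.0418), all by edgeR. In the droplet list Abhd5, the co-activator of triglyceride lipase, and Plin3, a droplet coat protein gene, fell, and Pnpla3, a lipase relative, rose (1.17, adjusted p 0.00123). Dgat1 rose and Lpin1, a phosphatidate phosphatase gene, fell. Among PPARγ partners Ppard, a sister receptor, rose (1.65, adjusted p 0.00451) and Cebpa, a transcription factor of lipid-storing cells, fell (-0.80, adjusted p 0.0149). Of these 10 genes, Dgat1, Lpin1, Elovl6 and Plin3 lost their call in 5 to 8 of the 10 fits that left out a library, and each of the 10 lost it with either satellite-like covariate, of which the split rests on 1 library.

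In cKO, where 9.22% of genes were called, 3 of 23 genes of fatty acid synthesis rose from topical to systemic and 0 fell, and the median of the list was 0.068. These were Acsl1, which activates long-chain fatty acids (115 ± 18.8 to 243 ± 39.7 CPM; 1.08, adjusted p 0.000391), and the elongases of very long chains Elovl1 (0.98, adjusted p 0.00602) and Elovl4 (1.10, adjusted p 0.0306), by edgeR. Dgat2, which makes triglycerides, rose from 107 ± 23.5 to 292 ± 144 CPM (1.44, adjusted p 0.00714), Lpin1 fell by 0.95 (adjusted p 0.00339), and Pnpla3 rose (1.08, adjusted p 0.00334). Plin2, a droplet coat protein gene on the sebocyte and droplet lists, fell from 191 ± 82.0 to 60.7 ± 38.4 CPM (-1.65, adjusted p 0.0194), as 1 of 12 sebocyte markers called. Elovl4 lost its call in 5 and Plin2 in 2 of 10 fits that left out a library, and the other 5 genes in 0. Scd1 and Elovl3, the desaturase and elongase among the members, were not called in this comparison, with log2 fold changes of -0.43 and -1.07.

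Markers of other cells were read beside the route comparisons. In controls the hair follicle gene Krt15 rose (1.25, edgeR adjusted p 0.00922), as 1 of 9 follicle markers called, Dsg3 rose as 1 of 7 keratinocyte markers (0.77, adjusted p 0.0254) and Pmel as 1 of 3 melanocyte markers (0.77, adjusted p 0.0142), beside 10.2% of all genes called higher there. Adrb3, a receptor gene, rose as 1 of 3 adipocyte markers past the filter, in controls (2.26, edgeR adjusted p 0.00195) and in cKO (1.68, edgeR adjusted p 0.0317). It never exceeded 2.64 CPM, and the call in cKO was lost in 4 of 10 fits that left out a library. Only 1 of the 3 estimates was above 0 in either comparison, and the list medians were -0.38 in controls and -0.16 in cKO. Of all genes 10.2% were called higher in controls and 5.19% in cKO. No fibroblast or immune marker was called in any of the 5 comparisons. The 4 fibroblast markers past the filter (Col1a1, Col1a2, Col3a1 and Dcn) nevertheless had estimates of the sign of most members in the comparisons within topical and within cKO mice. In topical genotype all 4 were above 0 (median 1.35, 2 of 4 with an unadjusted p under 0.05), and in route in cKO all 4 were below 0 (median -1.26, 1 of 4). In route in controls 3 of 4 were above 0 (median 0.65), against 0 of 7 members. Their summed level over all 8 listed genes was 1.68 to 8.67 CPM in topical controls, 3.37 to 24.8 in topical cKO, 1.58 to 14.2 in systemic controls and 2.63 to 6.69 in systemic cKO. The sum of the 8 immune markers was 6.42 to 14.1 CPM in topical controls and 9.51 to 24.0 CPM in systemic controls. It was 6.25 to 15.8 CPM in topical cKO and 16.4 to 31.0 CPM in systemic cKO, so that the cKO groups did not overlap. The part of these other cell markers in the values of the members was not tested.

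Libraries with Y-linked transcripts were compared with those without, a comparison added after the values were seen, since the labels used here do not give sex. Each group of 5 held 2 or 3 of each kind. With group in the model, Pparg was higher in libraries with Y-linked transcripts by a log2 difference of 1.25 (SE 0.29, adjusted p 0.0427 by edgeR's quasi-likelihood test). Its means were 4.21 against 1.90 CPM in topical controls, 5.18 against 2.79 in topical cKO, 1.68 against 0.921 in systemic controls and 2.32 against 0.492 in systemic cKO, and 3 of the 4 groups, each of 2 against 3 libraries, showed no overlap. No overlap in this direction in 3 or more groups was found for 1.58% of all genes, and in 2 or more for 9.58%. Elovl3, Far2, Soat1, Cidea and Scd3 showed none in 2 groups and Scd1 in 1. The call was lost in 15 of 20 fits that left out a library (adjusted p 0.0145 to 0.107) and with all genes with a count tested (adjusted p 0.0527), while the estimate stayed between 1.12 and 1.47. The other 6 genes had estimates from 0.57 for Scd1 to 1.12 for Scd3 and adjusted p from 0.328 to 0.581. Elovl3, Far2, Soat1 and Cidea had the higher mean in libraries with Y-linked transcripts in 4 of 4 groups, and Scd1 and Scd3 in 3. Of all genes 0.853% were called, 0.427% as higher in these libraries, beside 1 of 7 members. Insig1, a sterol-sensing regulator (0.69, adjusted p 0.00539), Acacb (1.05, adjusted p 0.03), Elovl6 (1.17, adjusted p 0.034) and Elovl5 (0.62, adjusted p 0.0427) were called in the same direction. Insig1 kept its call in 20 of 20 such fits, and the other 3 lost it in 8, 9 and 16. These 4 were 1 of 21 partners and regulators and 3 of 23 genes of fatty acid synthesis. Called were 0 of 12 sebocyte markers, 0 of 13 droplet genes and 0 of 9 wax and sterol ester genes. The median difference was 0.75 for the members, 1.02 for 4 fibroblast, 0.72 for 3 melanocyte and -0.18 for 7 keratinocyte markers, beside 0.017 over all genes.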

How the data were processed

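The authors deposited 1 table of raw counts, whole-number reads per gene without normalization, for 25719 Ensembl genes in 20 libraries. Per the submitters' processing notes, STAR and featureCounts were used with GRCm38 (mm10); versions and settings are not given in the sources used here. Libraries were grouped by the genotype and treatment labels. Counts were fitted with edgeR 4.0.16 in R 4.3.3: TMM factors, filterByExpr (minimum count 10, minimum total 15; 12424 genes kept), a robust quasi-likelihood model with 1 coefficient per group over all 20 libraries, two-sided F tests and Benjamini-Hochberg adjustment over all genes tested, called at an adjusted p under 0.05. Levels are counts per 1000000 (CPM) scaled by TMM factors, with SDs over 5 mice. Correlations used log2 CPM with a prior count of 1. A count of 3 was taken as the detection floor; intervals cover the spread between mice. Library totals of 11588851 to 50082771 counts leave counting error small for Scd1 and Far2; the lowest libraries hold 3 to 32 reads of the other members. Sums used as covariates, and the satellite-like and Y-linked sums, are relative to the library total without TMM factors. The pipeline was tested on simulated data.

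The members and lists were chosen with earlier results of these data known. Named genes were the members, up to 4 called genes per list and comparison by adjusted p, the 8 genes most like the members, and defining sebocyte and adipocyte markers. Coordinates come from GENCODE M21 (GRCm38), in which 25665 of the 25719 identifiers were found and 24997 had the same symbol. Of the members, 4 were matched to RefSeq promoters by symbol, and Cidea was left out of the promoter search. Alternatives were scaling with size factors from DESeq2 1.42.0, its Wald test, 2 other filters, fits restricted to the 10 libraries of a comparison, the mouse number as a block, covariates for sex, satellite-like transcripts, mitochondrial share, sebocyte markers and adipocyte markers, and leaving out each library. Added after seeing the data were the fit without the 6 libraries over 50 CPM of satellite-like transcripts, the comparison by Y-linked transcripts and the within-split correlations. A permutation test planned for members below the filter was not run, since all passed.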

Additional observations from a re-analysis of the deposited data

Results flagged for a closer look

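In 28 groups of 5 values (7 genes in 4 groups), 3 had a highest mouse that lay far from the others by Dixon's ratio (over 0.71). Chance gives about 1 in 20 for independent, normally distributed values. The ratio was taken on CPM without logs, and the genes vary together, so that rate is not a fair reference here. Scd3 in topical control 6 was 10.1 CPM, against 4.42 to 5.85 CPM in the other topical controls. Scd3 in systemic cKO 4 was 41.7 CPM, against 0.352 to 5.25 CPM in the others. Far2 in systemic cKO 4 was 83.1 CPM, against 11.2 to 31.7 CPM. Systemic cKO 4 was also the largest library, with 50082771 counts, and its part in these values was not tested.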

How the results depend on the processing

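Of 1010 log2 differences of the members recomputed under the alternatives, 922 kept their direction and their side of the threshold, 6 passed the threshold, 16 no longer passed it and 66 changed sign, 30 of them when a library was left out. All 28 group means moved by less than 1 SD when scaled to the library total alone. The number of members called stayed at 0 in the topical genotype, systemic genotype and interaction comparisons under every alternative run. In route in controls it was 1 with sex as a covariate (Pparg). In route in cKO it was 1 with sex as a covariate, 1 with the DESeq2 Wald test, 1 with the replicate block (Pparg in each) and 0 to 2 when a library was left out. In the comparison by Y-linked transcripts it was 0 with all genes with a count and 0 to 1 when a library was left out. The causes were not tested.

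Mouse numbers recur across groups, and the labels do not say what a number marks. Deviations of same-numbered mice from their group correlated across genes at -0.30 to 0.32. Differently numbered mice were not compared in this way, so whether the number marks a litter or batch was not tested. With the number as a block, Pparg had -1.93 in route in cKO (adjusted p 0.0466 by edgeR), and in the systemic genotype comparison Pparg turned to 0.055 and Cidea to 0.10. The block gave 9 genes called in place of 16 in the topical comparison and 0 in place of 31 in the interaction.

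The split at 50 CPM of satellite-like transcripts holds all systemic controls, so a fit with it as a covariate sets systemic cKO 2 alone against them and takes its coefficient from that library against the other 4 systemic cKO. In that fit systemic genotype estimates turned to -2.25 (Scd1), -3.63 (Scd3), -3.64 (Elovl3), -1.42 (Far2) and -3.03 (Soat1), interaction estimates to -2.57 (Scd1) and -3.38 (Scd3), and route in controls to 1.29 (Pparg), 2.42 (Scd1), 4.76 (Scd3), 3.34 (Elovl3), 1.07 (Far2), 2.45 (Soat1) and 3.11 (Cidea). With their log2 sum, systemic genotype turned to -0.94 (Scd1), -0.80 (Scd3), -1.39 (Elovl3), -0.54 (Far2) and -1.33 (Soat1), interaction to -1.54 (Scd1) and -0.82 (Scd3), route in controls to 0.78 (Scd1), 1.48 (Scd3), 0.70 (Elovl3), 0.41 (Soat1) and 0.84 (Cidea), and topical genotype to 0.016 (Scd3). With sex as a covariate Scd3 turned to 0.18 in topical genotype. The adipocyte sum includes Lpl, which varied with the members (r = 0.975), so this covariate takes up part of their own pattern. With adipocyte markers, Pparg turned to -0.040 in topical genotype, 0.087 in systemic genotype and 0.13 in the interaction, Cidea to 0.0027 in systemic genotype, and Elovl3 and Far2 to 0.20 and 0.090 in the interaction. None of these was called.

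Leaving out 1 library moved topical genotype from -0.021 to 0.54 (Pparg) and -0.90 to 0.0086 (Scd3). It moved systemic genotype from -0.62 to 0.35 (Pparg), -0.59 to 1.71 (Scd3), -0.12 to 0.73 (Elovl3), -0.27 to 0.59 (Far2), -0.28 to 0.44 (Soat1) and -0.46 to 0.24 (Cidea). It moved the interaction from -0.84 to 0.12 (Pparg), -0.23 to 0.77 (Scd1), -0.35 to 2.21 (Scd3), -0.60 to 0.26 (Elovl3) and -0.70 to 0.17 (Far2), and Scd3 in route in cKO from -0.82 to 1.74.

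Of all genes, topical genotype called 42 with the DESeq2 Wald test (16 in the fit reported). Systemic genotype (235) called 0 with either satellite-like covariate, 35 in a fit of its own libraries, 559 with DESeq2, 611 with sebocyte markers, 1320 with the mitochondrial share and 81 to 787 without 1 library (787 without systemic cKO 2). The interaction (31) called 0 with either satellite-like covariate, 49 with sex or the filter at 5 CPM, 78 with adipocyte markers, 321 with DESeq2, 328 with sebocyte markers, 364 with the mitochondrial share and 16 to 470 without 1 library. Route in controls (2277) called 1 and 118 with the satellite-like covariates and 3496 with the mitochondrial share, and 1463 to 2524 without 1 library. Route in cKO (1145) called 746 to 1709, and Y-linked transcripts (106) 48 to 202. The filter at a mean of 5 CPM removed Pparg, so that setting gives no value for it.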
